A study of Mus musculus with 28 samples.

Results

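The 4 tropomyosin genes Tpm1, Tpm2, Tpm3 and Tpm4, the 4 tropomodulin genes Tmod1, Tmod2, Tmod3 and Tmod4, and the leiomodin gene Lmod1 were followed across 28 single-channel arrays of mouse embryonic fibroblasts (MEFs). They were taken by gene symbol from the array's probe annotation, which held all 9 listed members among 19938 named genes. Probe sets annotated to several symbols were left out. Where a gene had several other probe sets, the one with the highest mean signal stood for it. The cultures had received MYOCD, MEF2C and TBX5 (DMT, 4 arrays), the same factors with NKX2.5 (DMNT, 4), GATA4, MEF2C and TBX5 with Hand2 and NKX2.5 (HNGMT, 3), with Hand2 (HGMT, 3) or with NKX2.5 (NGMT, 6), or GATA4, MEF2C and TBX5 alone (GMT, 5), and 0F MEFs had received no factor (3). All factor-treated MEFs also carried lentiviruses for the activator rtTA and for a reporter in which a troponin T promoter drives GCaMP5 and zeocin resistance. They were kept in reprogramming medium with 2 µg/mL doxycycline, put under zeocin at 300 µg/mL for 7 days and harvested on day 21, the day on which the non-transduced 0F MEFs were harvested as well. The replicates were independent biological samples. The factors, the viruses, the medium and the selection on a troponin T promoter therefore cannot be told apart in any comparison with 0F.

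Tropomyosins are coiled-coil proteins that polymerise along both sides of the actin filament. In striated muscle they carry the troponin complex and gate the access of myosin to actin, and in other cells they decide which myosins and severing proteins reach a filament. Tropomodulins cap the pointed end of the thin filament and so hold its length, whereas leiomodins, which are related to them, start new filaments. Mouse Tpm1 is the main tropomyosin of the heart, Tpm2 is abundant in smooth and skeletal muscle, and Tpm3 and Tpm4 are the main cytoskeletal forms of many other cells. Tmod1 is the tropomodulin of heart muscle and red cells, Tmod2 that of neurons, Tmod3 that of most other cells and Tmod4 that of fast skeletal muscle. Lmod1 is the leiomodin of smooth muscle.

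In the GRCm38.p6 gene table Tpm1 lies at chr9:67022590-67049672, Tpm2 at chr4:43513726-43523583, Tpm3 at chr3:90072651-90100902 and Tpm4 at chr8:72135288-72153142. Tmod1 lies at chr4:46038940-46116032, and Tmod3 (chr9:75497784-75559657) and Tmod2 (chr9:75565621-75611342) are neighbours on chromosome 9. Tmod4 lies at chr3:95122799-95129209 and Lmod1 at chr1:135324813-135368065. A probe set reads the gene as a whole, so splice forms of the tropomyosin genes were not distinguished, and signals of different genes cannot be compared as amounts.

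The 250 bases before a transcript start are shown for the 4 members with the largest differences between DMT and GMT MEFs, described further on. By the gene coordinates above, the Tpm1 and Tmod1 windows lie inside the gene and the Tpm2 window overlaps its 5′ end. The starts used for these 3 are therefore not the outermost of the gene, and only the Lmod1 window ends just before the gene. They come from the RefSeq promoter table of GRCm38.p6, run 5′ to 3′ in the direction of the gene, and were searched on both strands. Capitals mark CATTCC or its reverse complement GGAATG, the MCAT element bound by TEAD factors, and near matches to the CArG box, the site of serum response factor, with at most 1 base outside the consensus.
Tpm1, chr9:67049214-67049463, minus strand: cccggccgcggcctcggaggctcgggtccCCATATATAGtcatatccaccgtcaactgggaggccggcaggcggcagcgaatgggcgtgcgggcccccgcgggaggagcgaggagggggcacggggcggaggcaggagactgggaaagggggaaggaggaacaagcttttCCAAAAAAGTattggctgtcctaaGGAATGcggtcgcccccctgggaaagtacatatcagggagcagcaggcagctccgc
Tpm2, chr4:43523555-43523804, minus strand: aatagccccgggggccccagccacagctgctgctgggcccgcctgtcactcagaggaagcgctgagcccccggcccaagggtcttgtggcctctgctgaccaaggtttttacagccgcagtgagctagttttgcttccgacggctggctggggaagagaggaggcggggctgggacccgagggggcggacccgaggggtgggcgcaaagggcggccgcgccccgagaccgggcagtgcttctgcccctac
Tmod1, chr4:46038972-46039221, plus strand: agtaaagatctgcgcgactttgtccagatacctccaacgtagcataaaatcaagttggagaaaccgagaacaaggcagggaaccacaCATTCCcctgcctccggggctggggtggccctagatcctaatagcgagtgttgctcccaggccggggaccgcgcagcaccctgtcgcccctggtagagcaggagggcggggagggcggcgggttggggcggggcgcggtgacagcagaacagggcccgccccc
Lmod1, chr1:135324563-135324812, plus strand: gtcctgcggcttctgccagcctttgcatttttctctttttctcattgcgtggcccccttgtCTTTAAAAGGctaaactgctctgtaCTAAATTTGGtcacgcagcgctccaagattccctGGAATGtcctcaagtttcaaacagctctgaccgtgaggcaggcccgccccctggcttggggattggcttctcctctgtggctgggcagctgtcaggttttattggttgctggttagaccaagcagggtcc
The Tpm1 window held a near match to the CArG box from -221 to -212, another from -80 to -71 and an MCAT element from -56 to -51, counted from the transcript start. The Lmod1 window held near matches from -189 to -180 and from -164 to -155 and an MCAT element from -130 to -125. Tmod1 had an MCAT element from -163 to -158, and none of these letters stood in the Tpm2 window. The table held 10 promoters of 8 members. Of the 8, Tpm1, Lmod1 and Tpm3 had a near match or better to the CArG box. It was in 4 of the 10 promoters, against 18.6% of all 32851 in the table. The full consensus was in 0 of the 10, against 1.47% of all. An MCAT element was present for Tpm1, Tmod1 and Lmod1, in 3 of the 10 promoters, against 12.6% of all promoters. The MEF2 consensus was found in 0 of the 10 (2.92% of all promoters) and GATAA in 2, both of Tpm3 (22.6%). The T-box letters AGGTGT were in 1, of Tmod2 (11.8%), and the E-box CANNTG in 8, of 6 members (66.2%). An MCAT element lay inside no near match to the CArG box in the 4 windows shown.

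The deposited values were log2 signal on 35556 probe sets. The arrays fell into 3 sets of nearly equal value distributions, with a median signal of 6.68 to 6.75 in set 1, 6.86 to 6.95 in set 2 and 7.64 to 7.65 in set 3, so groups were compared inside a set. Set 1 held 2 GMT, 3 NGMT and the 3 0F arrays. Set 2 held 3 arrays each of DMT, HNGMT, HGMT, NGMT and GMT, and set 3 held the 4 DMNT arrays and 1 DMT array. HNGMT replicate 1 stood apart, with an SD of its log2 differences from the other HNGMT arrays of 0.352 to 0.381, against 0.110 to 0.231 for the other 26 pairs inside a group and set. In set 3, pairs of DMNT arrays had 18.0% to 28.8% of probe sets at exactly equal values, against at most 4.89% in set 1 and 1.81% in set 2. Fibroblast and matrix genes (17, among them Col1a1, Vim and Pdgfra) were each above the array median on at least 1 array of every group. Of 17 cardiac markers, Myl2 and Pln were below the array median on every array of every group, and Myh7 in every group of sets 1 and 2.

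Signal above the median of its array was used as the sign of a gene that was measured well. Tpm1, Tpm2, Tpm3, Tpm4 and Tmod3 were above it on all 28 arrays and Tmod1 on 26. Lmod1 was above it on 9 arrays, all of them DMT or DMNT except 1 HNGMT array. Tmod2 was above it on 3, the 0F arrays, and Tmod4 on 0. Genes above it on at least 3 arrays were tested (12211 genes, 8 of the 9 members), and a gene was called at a Benjamini-Hochberg adjusted p under 0.05. Tmod2 entered the test only through the 0F arrays, and Lmod1 nearly only through DMT and DMNT. Where these groups are compared, a difference of these genes was a condition of being tested. Counts below that include them therefore support nothing by themselves, and part of these counts are also given without them. The same holds for genes of the marker lists that were low in 1 of the groups compared.

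**Figure D1:**
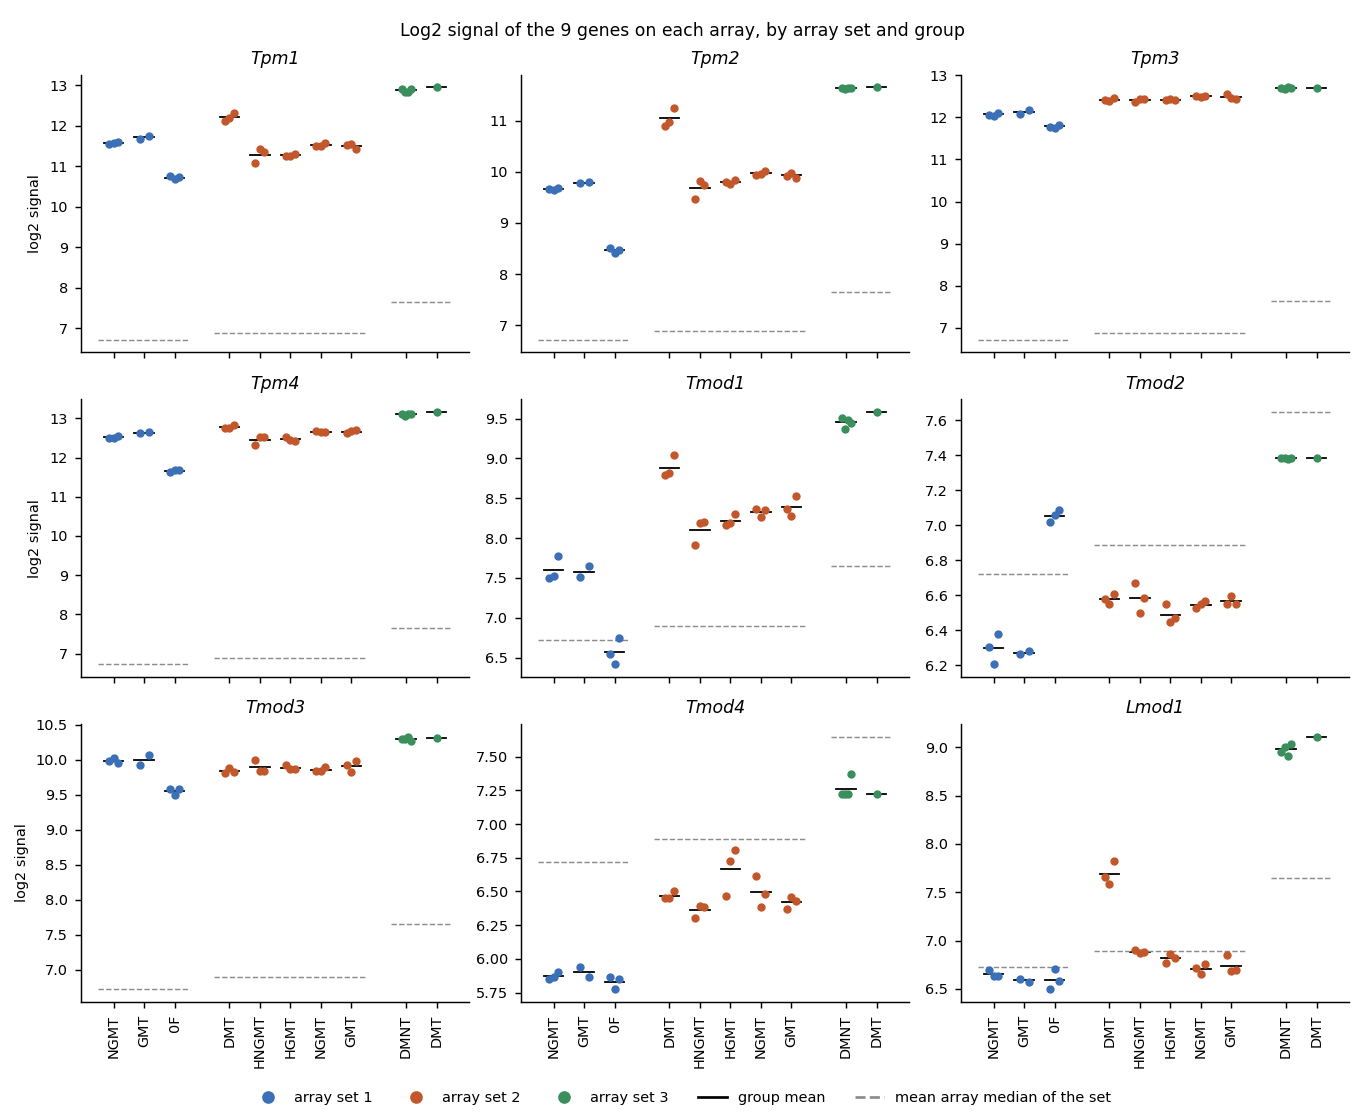
Log2 signal (y axis) of the 9 genes on each array, with arrays grouped along the x axis by array set and group. Points are arrays, black bars group means and dashed lines the mean array median of the set. Tpm1, Tpm2, Tpm4 and Tmod1 sit above 0F in the GMT and NGMT arrays of set 1, and Tmod2 sits below. DMT is the highest group of set 2 for Tpm1, Tpm2, Tpm4, Tmod1 and Lmod1.

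GMT and NGMT MEFs were first set against 0F MEFs, which asks how the thin-filament genes stand in cells that received cardiac factors and selection. All 4 tropomyosins, Tmod1 and Tmod3 rose and Tmod2 fell in both groups, while Lmod1 passed the test in neither. Of the 8 members tested, 7 were called in GMT and 7 in NGMT, but so were 56.5% of all tested genes for GMT against 0F and 58.2% for NGMT against 0F. Without Tmod2, 6 of 7 were called in each. Both comparisons use the same 3 0F arrays. In these bulk cultures fewer cells of a type and less RNA per cell cannot be told apart.

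Tpm2 differed most among the tropomyosins. Its log2 signal was 9.77 and 9.80 in GMT MEFs and 9.67, 9.65 and 9.69 in NGMT MEFs, against 8.51, 8.42 and 8.48 in 0F MEFs. The 0F arrays lay more than 1 log2 unit under every array with factors, and the difference from 0F was 1.32 ± 0.08 for GMT (SE, 2.49-fold, adjusted p = 1.42e-12) and 1.20 ± 0.07 for NGMT (2.30-fold, adjusted p = 9.07e-13). Tpm1 gave 11.67 and 11.75 in GMT MEFs and 11.55, 11.57 and 11.59 in NGMT MEFs, against 10.75, 10.68 and 10.74 in 0F MEFs. The groups did not overlap, at 0.99 ± 0.07 for GMT (1.99-fold, adjusted p = 7.51e-12) and 0.85 ± 0.06 for NGMT (1.80-fold, adjusted p = 1.55e-11). Tpm4 gave 12.62 and 12.65 in GMT MEFs and 12.51, 12.50 and 12.55 in NGMT MEFs, against 11.64, 11.67 and 11.68 in 0F MEFs. Here too the groups lay apart, at 0.97 ± 0.05 for GMT (adjusted p = 7.35e-15) and 0.85 ± 0.04 for NGMT (adjusted p = 8.34e-15). Tpm3 differed least, at 12.09 and 12.18 in GMT MEFs and 12.04 to 12.11 in NGMT MEFs, against 11.76 to 11.82 in 0F MEFs. Its difference was 0.35 ± 0.04 for GMT (adjusted p = 1.73e-08) and 0.28 ± 0.03 for NGMT (adjusted p = 7.41e-08), and the ranges were apart.

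The tropomodulins moved in opposite directions. Tmod1 gave 7.51 and 7.65 in GMT MEFs and 7.49, 7.53 and 7.78 in NGMT MEFs, against 6.54, 6.41 and 6.74 in 0F MEFs. The 0F arrays were lowest, 2 of the 3 of them below the array median, and the difference was 1.01 ± 0.10 for GMT (2.02-fold, adjusted p = 1.26e-08) and 1.03 ± 0.09 for NGMT (2.05-fold, adjusted p = 1.26e-09). Tmod3 gave 9.92 and 10.06 in GMT MEFs and 9.95 to 10.03 in NGMT MEFs, against 9.50 to 9.59 in 0F MEFs, without overlap. Its difference was 0.43 ± 0.06 for GMT (1.35-fold, adjusted p = 3.65e-07) and 0.43 ± 0.05 for NGMT (1.35-fold, adjusted p = 7.51e-08). Tmod2, the neuronal form, gave 6.26 and 6.28 in GMT MEFs and 6.31, 6.21 and 6.38 in NGMT MEFs, against 7.02, 7.06 and 7.09 in 0F MEFs. It was above the array median on the 0F arrays only, and its difference was -0.78 ± 0.05 for GMT (0.581-fold, adjusted p = 1.06e-11) and -0.76 ± 0.05 for NGMT (0.591-fold, adjusted p = 2.29e-12). With no filter, Tmod2 had an adjusted p of 5.42e-12 for GMT and 1.13e-12 for NGMT over all named genes. Lmod1 was below the array median in all 3 groups, at 6.60 and 6.57 in GMT MEFs and 6.63 to 6.69 in NGMT MEFs, against 6.49 to 6.70 in 0F MEFs. Its groups overlapped, and the 95% interval of the difference was -0.15 to 0.14 for GMT and -0.07 to 0.19 for NGMT.

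Other genes of the thin filament and its regulators moved mostly the same way. The list held 38 genes and no member, and 33 were tested. For GMT against 0F, 23 rose and 0 fell, with a median difference of 0.52, against 0.05 over all tested genes. For NGMT against 0F, 25 rose and 1 fell (median 0.51). The largest rises for GMT were Tnnt2 (5.12 ± 0.09), the cardiac troponin T gene, Actc1 (4.40 ± 0.11), cardiac actin, and Cap2 (3.31 ± 0.11), an actin-monomer binding protein. The differences of the 8 tested members, from -0.78 to 1.32, were smaller in size than those of these 3 genes.

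Markers of other cell types moved along with these differences. The 17 cardiac markers summed to 18098.6 to 20071.8 in linear signal in GMT and 18046.0 to 19160.6 in NGMT MEFs, against 1533.5 to 1574.2 in 0F MEFs, with 12 of 14 tested higher in each comparison. Of 17 fibroblast and matrix genes, 13 fell and 4 rose in GMT, and 10 fell and 4 rose in NGMT. The summed signal of 9 adipocyte markers was 2008.2 to 2261.0 in GMT and 2241.6 to 2848.3 in NGMT MEFs, against 40416.8 to 41962.5 in 0F MEFs, and all 9 fell in both comparisons. Adipoq, Retn, Car3, Cd36 and Lep were below the array median on every GMT and NGMT array of set 1, as Plin1 was for GMT. The summed signal of 11 macrophage markers was 1381.7 to 1577.4 in GMT and 1394.6 to 1406.1 in NGMT MEFs, against 6923.7 to 9773.0 in 0F MEFs, and 9 of the 10 tested fell and 1 rose in each comparison. Lyz2, Adgre1, C1qa, C1qb, C1qc, Ptprc and Tyrobp were below the array median on every GMT and NGMT array of set 1. The 9 epithelial and mesothelial markers summed to 9456.4 to 10112.0 in GMT and 11086.4 to 11427.2 in NGMT MEFs, against 681.1 to 789.1 in 0F MEFs, with all 7 tested higher, and Epcam and Cdh1 below the array median in all 3 groups. Their part in the differences of the tropomyosins and tropomodulins was not tested.

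**Figure D2:**
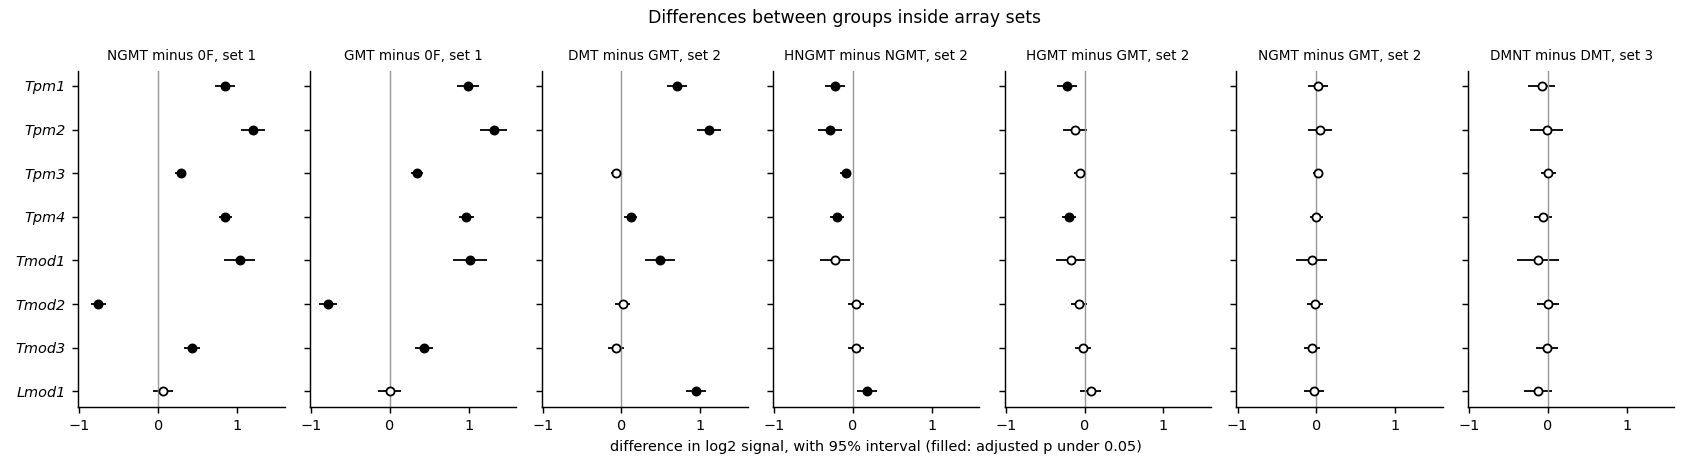
Difference in log2 signal (x axis) of the 8 tested genes in 7 comparisons inside array sets, with 95% intervals. Filled points passed an adjusted p under 0.05. Against 0F, 7 of 8 are filled in GMT and in NGMT, 5 are filled for DMT against GMT, and 0 for NGMT against GMT in set 2 and for DMNT against DMT in set 3.

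MYOCD, the factor that replaces GATA4 in DMT, is a coactivator of serum response factor that drives smooth muscle genes. DMT MEFs had more Tpm1, Tpm2, Tpm4, Tmod1 and Lmod1 signal than GMT MEFs in set 2, and Tpm3, Tmod2 and Tmod3 did not pass the test. These 5 of the 8 tested members were called, all higher, where 9.11% of all tested genes were called higher and 17.3% in either direction. Without Lmod1 they were 4 of 7.

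Tpm2 and Lmod1 had the largest differences. Tpm2 gave 10.89, 10.98 and 11.26 in DMT MEFs, against 9.92, 9.98 and 9.89 in GMT MEFs. The lowest DMT array lay well above the highest GMT array, and the difference was 1.11 ± 0.07 (2.16-fold, adjusted p = 3.66e-11). Lmod1 gave 7.66, 7.58 and 7.82 in DMT MEFs, against 6.85, 6.68 and 6.69 in GMT MEFs. It was above the array median on every DMT array and below it on every GMT array, and the measured difference was 0.94 ± 0.06 (1.92-fold, adjusted p = 3.07e-11, and 2.98e-11 with no filter). Tpm1 gave 12.11, 12.19 and 12.31 in DMT MEFs, against 11.53, 11.54 and 11.42 in GMT MEFs. The groups did not overlap, at 0.71 ± 0.06 (1.63-fold, adjusted p = 3.94e-09). Tmod1 gave 8.79, 8.82 and 9.05 in DMT MEFs, against 8.37, 8.28 and 8.53 in GMT MEFs. The gap between the ranges was about as wide as either range, and the difference was 0.49 ± 0.09 (1.41-fold, adjusted p = 4.16e-04). Tpm4 gave 12.77, 12.76 and 12.82 in DMT MEFs, against 12.62, 12.68 and 12.69 in GMT MEFs. The ranges were apart, but the difference of 0.12 ± 0.04 (adjusted p = 0.0452) did not pass when any 1 of GMT replicate 3 or 4 or DMT replicate 1, 2 or 3 was left out (0.10 to 0.13), nor after quantile normalization within each set (0.06). It was lost under 12 of 17 alternatives, with an adjusted p of 0.0027 to 0.499.

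The other 3 tested members overlapped between DMT and GMT. Tpm3 gave 12.38 to 12.45 in DMT MEFs, against 12.44 to 12.55 in GMT MEFs, with a 95% interval of the difference of -0.13 to 0.00. Tmod3 gave 9.81 to 9.88 in DMT MEFs, against 9.82 to 9.98 in GMT MEFs (-0.18 to 0.03), and Tmod2 stayed below the array median at 6.55 to 6.61 in DMT MEFs and 6.55 to 6.60 in GMT MEFs (-0.09 to 0.11).

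Tpm1, Tpm2, Tpm4, Tmod1 and Lmod1 were also the 5 members called in DMT against NGMT and in DMT against HGMT MEFs, all higher, comparisons that share the DMT arrays with the one above. Of all tested genes, 18.5% were called for DMT against NGMT (9.53% higher) and 36.6% for DMT against HGMT (20.7% higher). Each count of 5 includes Lmod1, which entered the test nearly only through DMT and DMNT. The difference for Tpm2 was 1.07 ± 0.07 against NGMT and 1.24 ± 0.07 against HGMT, and that for Lmod1 was 0.98 ± 0.06 against NGMT and 0.87 ± 0.06 against HGMT. Tpm1 differed by 0.69 ± 0.06 from NGMT and 0.93 ± 0.06 from HGMT, and Tmod1 by 0.55 ± 0.09 from NGMT and 0.67 ± 0.09 from HGMT. For Tpm4 the difference was 0.32 ± 0.04 against HGMT (adjusted p = 9.48e-07) and 0.12 ± 0.04 against NGMT (adjusted p = 0.0423), and leaving out any 1 of the 6 NGMT or DMT arrays of set 2 ended the call against NGMT (0.10 to 0.13).

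Among the 33 other thin-filament genes tested, 18 rose and 4 fell in DMT against GMT, with a median difference of 0.18, against 0.01 over all genes. Cnn1 (4.68 ± 0.10), the calponin of smooth muscle, Actg2 (3.86 ± 0.13), enteric smooth muscle actin, and Acta1 (3.45 ± 0.07), skeletal muscle actin, rose most. Tnni3 (-2.17 ± 0.12), cardiac troponin I, Cap2 (-1.66 ± 0.10) and Fhod3 (-0.91 ± 0.13), a formin of the heart sarcomere, fell most. Of 16 smooth muscle markers 15 rose and 0 fell (median 2.03), led by Cnn1, which with Actg2, Acta2 and Tagln is on both lists, Myh11 (4.49 ± 0.08) and Kcnmb1 (4.09 ± 0.08), and their summed signal was 26422.6 to 30560.8 in DMT MEFs, against 7642.4 to 7863.8 in GMT MEFs. Each of the 16 was above the array median on at least 1 DMT array, and Myh11, Cnn1, Actg2, Synpo2, Pgm5, Aoc3, Kcnmb1 and Casq2 were below it on every GMT array of set 2. Of 15 cytoskeletal targets of serum response factor, some of them smooth muscle markers too, 13 rose and 0 fell (median 0.65). The skeletal muscle list of 20 genes had 8 risers and 1 faller among 12 tested, with a summed signal of 3819.6 to 4061.2 in DMT MEFs, against 1607.4 to 1727.3 in GMT MEFs, and Myod1, Myog, Myf5 and Myf6, which define the lineage, below the array median in both. The cardiac markers summed to 20742.7 to 24555.2 in DMT MEFs, against 16857.8 to 18016.3 in GMT MEFs, with 6 higher and 5 lower of 14 tested. Nppa (3.70 ± 0.12), Actc1 (2.50 ± 0.10) and Myh6 (2.49 ± 0.11) rose most, and Tnni3, which fell, is on this list too. Myh7, Myl2, Myl3 and Pln were below the array median in both groups. Mybpc3 and Ryr2 were below it on every DMT array but not on every GMT array, and Myh6 and Ttn the reverse. Of 7 epithelial and mesothelial markers tested, 1 rose and 4 fell, with Upk1b at -3.31 ± 0.11 and Msln at -1.41 ± 0.11, and their sum was 1400.1 to 1794.4 in DMT MEFs, against 1945.8 to 2192.0 in GMT MEFs. Adipocyte markers summed to 1894.2 to 2322.5 in DMT MEFs, against 3376.3 to 4891.7 in GMT MEFs, with 6 of 9 lower, and Lep and Retn were below the array median in both groups. The part of such cells in the member differences was not tested.

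**Figure D3:**
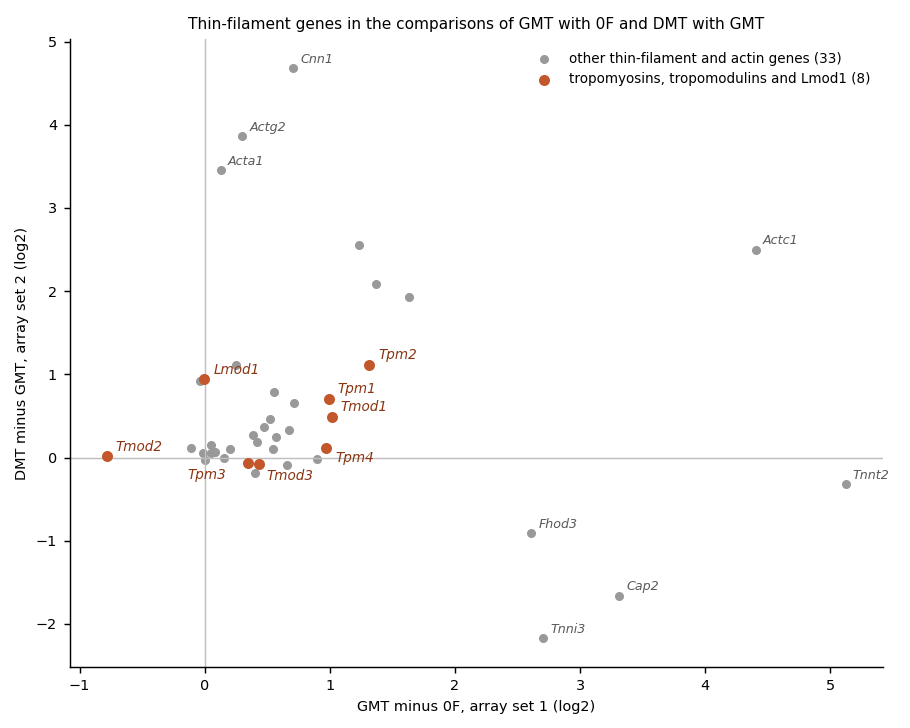
Difference in log2 signal of GMT minus 0F in set 1 (x axis) against DMT minus GMT in set 2 (y axis) for the 8 tested members (orange) and 33 other thin-filament and actin genes (grey). Tpm1, Tpm2 and Tmod1 are above 0 on both axes, Lmod1 is near 0 on the x axis and at 0.94 on the y axis, and Tmod2 is at -0.78 on the x axis and near 0 on the y axis.

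The order of the groups in set 2 was therefore not the same for all members. DMT was the highest group, with its range apart from the next, for Tpm1, Tpm2, Tpm4, Tmod1 and Lmod1. For Tpm1 and Tpm2, NGMT and GMT followed with overlapping ranges, and HNGMT and HGMT came last, overlapping with each other and apart from GMT. Tpm4 had the same pattern, with GMT and NGMT at 12.66 each and HGMT and HNGMT at 12.46 each. For Tmod1, GMT, NGMT, HGMT and HNGMT (8.39, 8.33, 8.22 and 8.10) each overlapped with the next. HNGMT was second for Lmod1, at 6.88 ± 0.01 (SD, n = 3), against HGMT at 6.81 ± 0.05. Their ranges were barely apart (lowest HNGMT array 6.869, highest HGMT array 6.862). By limma the difference did not pass (0.07 ± 0.06, SE, adjusted p = 0.497). Each group overlapped with its neighbours in the order for Tpm3, Tmod2, Tmod3 and Tmod4.

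Adding Hand2 was read from HGMT against GMT and from HNGMT against NGMT MEFs, in set 2. Tpm1 and Tpm4 fell in both, and Tpm2 and Tpm3 fell and Lmod1 rose in HNGMT against NGMT. The largest of these differences was -0.29. For HGMT against GMT, 2 of 8 members were called, against 23.9% of all tested genes. Tpm1 gave 11.26, 11.26 and 11.31 in HGMT MEFs, against 11.53, 11.54 and 11.42 in GMT MEFs. Every HGMT array was below every GMT array, at -0.22 ± 0.06 (0.857-fold, adjusted p = 0.00855). The call was lost under 2 of 17 alternatives, with an adjusted p between 1.28e-05 and 0.062 over all of them. Tpm4 gave 12.52, 12.45 and 12.43 in HGMT MEFs, against 12.62, 12.68 and 12.69 in GMT MEFs. These ranges were apart as well, at -0.20 ± 0.04 (0.871-fold, adjusted p = 6.87e-04). A second Tpm4 probe set, described further on, did not pass in either Hand2 comparison. Tpm2 lay at 9.76 to 9.84 in HGMT MEFs, against 9.89 to 9.98 in GMT MEFs, and did not pass (-0.13 ± 0.07, adjusted p = 0.234).

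For HNGMT against NGMT, 5 of 8 members were called, where 28.5% of all tested genes were called, and HNGMT replicate 1 was the lowest array of set 2 for the 4 tropomyosins and Tmod1. Tpm2 gave 9.47, 9.83 and 9.74 in HNGMT MEFs, against 9.94, 9.96 and 10.01 in NGMT MEFs, a difference of -0.29 ± 0.07 (adjusted p = 0.00453). Tpm1 gave 11.09, 11.41 and 11.35 in HNGMT MEFs, against 11.50, 11.49 and 11.57 in NGMT MEFs, a difference of -0.23 ± 0.06 (adjusted p = 0.00596). Tpm4 gave 12.32, 12.53 and 12.53 in HNGMT MEFs, against 12.68, 12.66 and 12.65 in NGMT MEFs, a difference of -0.20 ± 0.04 (adjusted p = 6.33e-04). For these 3 genes every HNGMT array was below every NGMT array. Without HNGMT replicate 1 they were still called, with smaller differences of -0.19 ± 0.06 for Tpm2, -0.13 ± 0.05 for Tpm1 and -0.13 ± 0.03 for Tpm4. Tpm3, at 12.35 to 12.44 in HNGMT MEFs against 12.48 to 12.51 in NGMT MEFs, differed by -0.09 ± 0.03 (adjusted p = 0.0400). Lmod1, at 6.87 to 6.90 in HNGMT MEFs against 6.66 to 6.76 in NGMT MEFs, differed by 0.17 ± 0.06 (adjusted p = 0.0393), with 2 of the 3 HNGMT arrays and all NGMT arrays below the array median. Both calls were lost without HNGMT replicate 1, NGMT replicate 4 or NGMT replicate 5, which leaves 3 members called. The Tpm3 call was also lost without NGMT replicate 6 and the Lmod1 call without HNGMT replicate 2 or 3.

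Among the 33 other thin-filament genes, 2 rose and 8 fell in HGMT against GMT, and 2 rose and 13 fell in HNGMT against NGMT, with Tnni3 falling most (-1.98 ± 0.12 and -1.86 ± 0.12) and Fhod3 among the risers (0.67 ± 0.13 and 0.63 ± 0.13). The median of the list was -0.08 for HGMT against GMT and -0.14 for HNGMT against NGMT, against -0.01 and -0.04 over all genes. Adipocyte markers summed to 8896.6 to 11291.3 in HGMT MEFs, against 3376.3 to 4891.7 in GMT MEFs, with 9 of 9 called higher. They summed to 6181.4 to 12036.5 in HNGMT MEFs, against 4219.0 to 5579.9 in NGMT MEFs, with 6 of 9 called higher. HNGMT replicate 1 had the highest of these sums, and also the highest macrophage sum, 4114.0 against 3001.7 and 1350.5 on the other HNGMT arrays. Macrophage markers had 0 of 10 higher and 2 lower in HGMT against GMT, and 6 higher and 0 lower in HNGMT against NGMT. Lep, Adgre1, C1qa, C1qc and Ptprc were below the array median on every array of all 4 groups. Of 8 endothelial markers 4 were tested, and 3 of these rose in each comparison. Pecam1, Kdr, Tie1, Emcn and Esam were below the array median on every array of all 4 groups, and Cdh5 in all but HGMT.

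The cardiac markers were lower with Hand2 in sum. They summed to 10978.2 to 11588.5 in HGMT MEFs, against 16857.8 to 18016.3 in GMT MEFs, with 2 higher and 6 lower of 14 tested. In HNGMT MEFs the sum was 10472.8 to 11731.3, against 16536.9 to 19042.9 in NGMT MEFs, with 2 higher and 5 lower. Myl7, the atrial myosin light chain, fell most in both (-2.10 ± 0.20 and -2.34 ± 0.20), and Myh7, Myl2, Myl3 and Pln were below the array median in all 4 groups. Of 7 epithelial and mesothelial markers, 2 rose and 2 fell in HGMT against GMT, and 2 rose and 3 fell in HNGMT against NGMT. Msln rose in both (1.38 ± 0.11 and 1.42 ± 0.11) and Upk1b fell in both (-1.75 ± 0.11 and -1.11 ± 0.11). The part of these cells and of the cardiac genes in the member differences was not tested.

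Adding NKX2.5 was read from 4 comparisons: NGMT against GMT in sets 1 and 2, HNGMT against HGMT, and DMNT against DMT. By limma 0 of 8 members were called in each, where 4.7% of all tested genes were called for NGMT against GMT in set 1, 0.0328% in set 2, 0.491% where Hand2 was also present and 0.0655% where MYOCD was. The 0.491%, or 60 genes, moved when single arrays were left out, with 1 gene called without HGMT replicate 1, 5 without HGMT replicate 2, 11 without HGMT replicate 3 and 14 without HNGMT replicate 1, but 2343 without HNGMT replicate 2 and 3058 without HNGMT replicate 3. The members called were 0 in each of these cases. At an unadjusted p under 0.05 there were 2 members in the first, Tpm1 and Tpm4, where 1632 of all 12211 tested genes were under it. There were 0 members for NGMT against GMT in set 2 (367 of all genes) and 0 for HNGMT against HGMT (3098 of all genes). In set 1 the NGMT arrays were all below the GMT arrays for Tpm1, Tpm2 and Tpm4. The differences were -0.14 ± 0.07 (adjusted p = 0.361), -0.11 ± 0.08 (adjusted p = 0.711) and -0.12 ± 0.05 (adjusted p = 0.189). In set 2 the same differences were 0.02 ± 0.06, 0.04 ± 0.07 and -0.00 ± 0.04. Their 95% intervals were -0.10 to 0.15, -0.11 to 0.19 and -0.08 to 0.08. The change of the NKX2.5 difference between set 1 and set 2, and that between MEFs with and without Hand2, were called for 0 of the 8 members. Of all tested genes, 0.639% and 0% were called. At an unadjusted p under 0.05 there were 0 members for each, against 849 and 1157 of all 12211 tested genes.

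DMNT MEFs were compared with the 1 DMT array of set 3, whose spread was taken to be that of the other groups. Tpm1 gave 12.91, 12.84, 12.82 and 12.91 in DMNT MEFs, against 12.95 in the DMT array (-0.08 ± 0.08). Tpm2 gave 11.64, 11.62, 11.64 and 11.64 in DMNT MEFs, against 11.65 in the DMT array (-0.02 ± 0.10). Lmod1 gave 8.95, 9.01, 8.91 and 9.04 in DMNT MEFs, against 9.11 in the DMT array (-0.13 ± 0.08). The DMT value was the highest of the 5 for these 3 genes, for Tpm4 and for Tmod1, by less than the test could separate. The 95% interval was -0.25 to 0.09 for Tpm1, -0.22 to 0.19 for Tpm2, -0.30 to 0.04 for Lmod1 and -0.40 to 0.14 for Tmod1 (-0.13 ± 0.13).

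No array set holds both 0F and the groups with Hand2 or MYOCD, so their differences from 0F were linked by the GMT and NGMT arrays present in both sets 1 and 2, and those of DMNT by the DMT arrays too. These estimates take the differences between sets to be the same for all groups. They are given beside a direct difference after quantile normalization of all arrays. The direct difference has no term for the array set, so in it differences between sets and between groups cannot be told apart. Before that normalization, Tmod1 in GMT MEFs had a mean of 7.58 in set 1 and 8.39 in set 2. On the GMT arrays the epithelial and mesothelial markers summed to 9456.4 to 10112.0 in set 1 and 1945.8 to 2192.0 in set 2. The fibroblast and matrix genes summed to 45236.1 to 47967.1 in set 1 and 67153.6 to 77071.1 in set 2. Scaling and the cultures cannot be told apart in such shifts. DMT MEFs differed from 0F by 2.34 ± 0.09 for Tpm2, 1.61 ± 0.08 for Tpm1, 1.55 ± 0.12 for Tmod1, 1.02 ± 0.05 for Tpm4 and 0.99 ± 0.08 for Lmod1. The direct values were 2.37 for Tpm2, 1.35 for Tpm1, 2.18 for Tmod1, 0.89 for Tpm4 and 1.17 for Lmod1. All 8 tested members were called in DMT against 0F, 7 higher and Tmod2 lower (-0.75 ± 0.06), where 56.4% of all tested genes were called. Without Tmod2 and Lmod1 they were 6 of 6. The same 8 were called in DMNT against 0F (41.4% of all genes), with Tpm2 at 2.33 ± 0.14 and Lmod1 at 0.86 ± 0.11, against direct values of 2.48 and 1.64.

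HNGMT against 0F also had 8 members called (49.7% of all genes), but Lmod1 was called at 0.19 ± 0.08 (adjusted p = 0.0436) and not in the direct comparison (adjusted p = 0.251). HGMT against 0F had 7 called (51.1% of all genes), all but Lmod1. Both counts include Tmod2, which entered the test only through the 0F arrays. For HGMT, Tpm1 differed from 0F by 0.68 ± 0.08 and directly by 0.40 ± 0.11, and Tmod1 by 0.88 ± 0.12 and directly by 1.49 ± 0.20. For HNGMT, Tpm1 differed by 0.69 ± 0.08 and directly by 0.41 ± 0.11, and Tmod1 by 0.77 ± 0.12 and directly by 1.43 ± 0.20. The sizes of these differences therefore depended on how the sets were joined, while the direction was the same for the 8 members. Tmod3 rose by 0.37 to 0.44 in the 4 comparisons with 0F, but by 0.07 to 0.19 in the direct ones, where it did not pass. DMNT against NGMT had Tpm2 (1.09 ± 0.12), Lmod1 (0.82 ± 0.10) and Tpm1 (0.64 ± 0.10) higher, 3 of 8 members where 6.27% of all genes were called (2 of 7 without Lmod1). The direct differences were 1.31 for Tpm2, 1.58 for Lmod1 and 0.82 for Tpm1. Tmod1 was not called at 0.41 ± 0.15 (adjusted p = 0.149). In the direct difference, which does not separate set from group, it was, at 0.87 ± 0.15 (adjusted p = 7.98e-05).

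Tpm3, Tpm4 and Tmod1 had more than 1 probe set. The 4 probe sets named for Tpm3 all rose in GMT against 0F, by 0.20 to 0.35, and 3 of the 4 rose in NGMT against 0F. Tpm3 has processed copies elsewhere in the mouse genome, and which of them a probe set also reads was not tested. For Tpm4 a second probe set, shared in the annotation with Gm7809, rose by 0.42 ± 0.04 in GMT against 0F and 0.39 ± 0.04 in NGMT against 0F, less than its own probe set (0.97 ± 0.04 and 0.85 ± 0.04). The shared probe set had the higher mean signal (13.03 against 12.59). By limma it did not pass in HGMT against GMT (-0.10 ± 0.04, adjusted p = 0.0673) or HNGMT against NGMT (-0.10 ± 0.04, adjusted p = 0.0601). Nor did it pass in DMT against GMT (0.05 ± 0.04) or DMT against NGMT (0.04 ± 0.04). In DMT against HGMT it passed (0.15 ± 0.04, adjusted p = 0.00413). For Tmod1 the 2 probe sets disagreed. The one of higher mean signal gave the values above, whereas the other was at 0.11 ± 0.13 in GMT against 0F, -0.05 ± 0.11 in NGMT against 0F and 0.02 ± 0.11 in DMT against GMT, and passed in none of these 3. With every probe set of a gene averaged, Tmod1 was still called, at 0.56 ± 0.09 in GMT against 0F, 0.49 ± 0.08 in NGMT against 0F and 0.25 ± 0.08 in DMT against GMT. In DMT against NGMT and against HGMT the second Tmod1 probe set differed by 0.00 ± 0.11 and -0.02 ± 0.11, and the average of both by 0.28 ± 0.08 and 0.32 ± 0.08, still called. Tpm4 in DMT against GMT had an adjusted p of 0.0596 when every probe set was tested as a feature of its own.

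**Figure D4:**
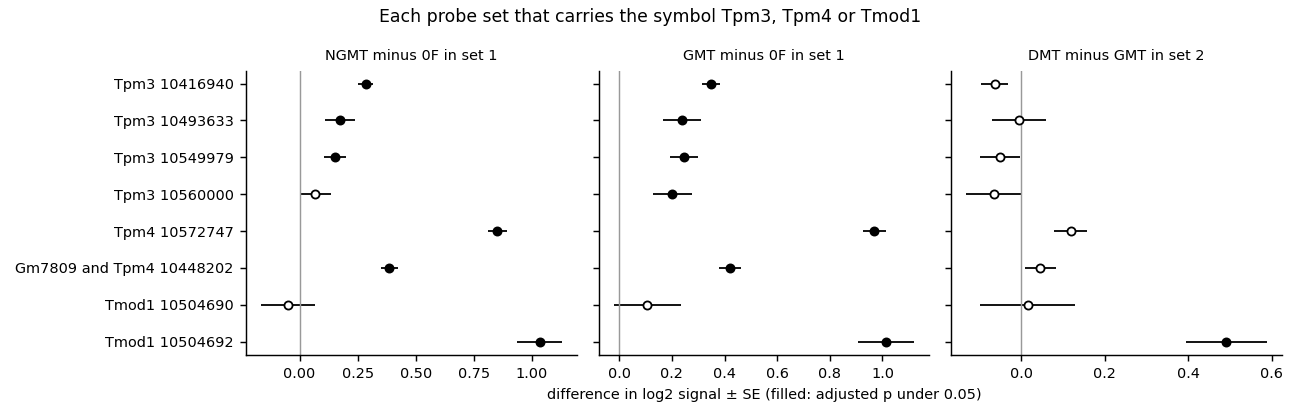
Difference in log2 signal with its SE (x axis) for each probe set annotated to Tpm3, Tpm4 or Tmod1 in 3 comparisons. Filled points passed an adjusted p under 0.05 over all probe sets tested. The second Tmod1 probe set is near 0 in all 3 comparisons, at most 0.11, and the probe set that Tpm4 shares with Gm7809 lies at smaller rises than that of Tpm4 alone.

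Tmod4 was below the array median on every array and was not tested. It gave 5.77 to 5.94 in set 1, 6.31 to 6.81 in set 2 and 7.23 to 7.37 in set 3, and HGMT was the highest group of set 2 at 6.47, 6.73 and 6.81, overlapping with NGMT at 6.39 to 6.62 but not with GMT at 6.37 to 6.46. With no filter on low signal its difference was 0.25 ± 0.07 in HGMT against GMT (adjusted p = 0.0123).

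Across the 28 arrays, after the mean of each set was subtracted, Tpm1 and Tpm2 were each the gene most like the other (Pearson r = 0.990). Their log2 signals correlated with those of Tmod1 at 0.946 and 0.944, of Tpm4 at 0.869 and 0.842 and of Lmod1 at 0.647 and 0.689. Lmod1 was nearly unrelated to Tpm3 (-0.108) and Tmod2 (0.020), and Tmod2 ran opposite to Tmod3 (-0.884), Tpm4 (-0.876) and Tpm3 (-0.861). The genes most like Lmod1 were Tspan2 (0.974), Myh11 (0.973), the myosin heavy chain of smooth muscle, and Itgb1bp2 (0.969). Those most like Tmod1 were Myo1c (0.971), Cap1 (0.969) and Cald1 (0.968), and those most like Tmod2 were Bche (0.976), Gys2 (0.974) and C1qtnf3 (0.973). For Tpm1, Klhl30 (0.986) and Nedd4l (0.985) followed Tpm2. For Tpm4 the nearest gene was Uhrf1bp1l (0.991), for Tpm3 Prr13 (0.969) and for Tmod3 Mindy3 (0.954). These are descriptions over arrays that share groups and scaling, in which the distances between 0F, DMT and the other groups set most of the spread.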

How the data were processed

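Total RNA of 28 mouse cultures was hybridised to single-channel arrays, and the authors deposited 1 matrix of log2 signal values, from 3.757941 to 14.46866. MAS5 is the tool named in the submitters' processing notes. Its version and the way signals were summarised and scaled are not known here. Such data have no counts or read depth, and the number of arrays limits the precision: the median half-width of a 95% interval over genes was 0.14 to 0.16 for comparisons inside sets 1 and 2 and 0.20 for DMNT against DMT.

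Groups came from the sample titles, although the source label is the same for all samples. Replicates were separate biological samples, per the labels' protocols. Arrays were put in 3 sets by the mean distance between their sorted values (under 0.1 inside a set). Probe sets were named from the platform annotation (21789 with 1 symbol, 1621 with several, 12146 with none), and coordinates came from RefSeq GRCm38.p6. Sums of marker lists are of linear signal.

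The test was that of limma (3.58.1, under R 4.3.3, with lmFit, contrasts, eBayes with trend, two-sided), on a mean for each group inside each set over all 28 arrays (18 residual degrees of freedom), with p adjusted by Benjamini-Hochberg over 12211 genes. Comparisons across sets used group and set as additive terms (19 residual degrees of freedom). The fit was tested on simulated data. Alternatives, in the closing section, changed the fit, the filter, the normalization, the probe set, the array weights, the replicate block and the arrays left out. Testing every probe set as a feature was added after the data were seen. The members and gene lists, and the comparisons, were chosen with earlier results of these data known. All members in every comparison, up to 3 called list genes with the largest rise and fall, and the 3 genes most like each member could be named, of which the text names part.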

Additional observations from a re-analysis of the deposited data

Results flagged for a closer look

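Only the DMNT group had 4 arrays in 1 set, so 9 tests for an array far from its group were possible, and 4 were met. The usual chance rate of about 1 in 20 does not hold here. For Tpm2, Tmod2 and Tmod4 the other 3 arrays had equal values, so that any other value would be flagged. Tpm2 and Tpm4 were lowest on DMNT replicate 2 (11.6160 and 13.0695). The Tpm2 value of the other 3 arrays was the same, 11.64, and Tpm4 lay at 13.11 to 13.12 on them. Tmod2 was lowest on DMNT replicate 3 (7.3813, against 7.39 on each of the other 3), and Tmod4 was highest on DMNT replicate 4 (7.3718, against 7.23 on each of the other 3). Pairs of these arrays share 18.0% to 28.8% of their values exactly, so small gaps stand out. Of 16 tests of a difference between NKX2.5 effects, 0 were met.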

How the results depend on the processing

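No called difference of a tested member changed direction under the alternatives tried. The 7 called members of GMT and of NGMT against 0F were 6 or 7 under each alternative. For NGMT against GMT in set 1, 1 member was called in a fit on the arrays of the set alone, after quantile normalization of all arrays and with array weights, against 0. For HGMT against GMT, 1 was called on the set alone and with the replicate block, and 4 with array weights, against 2. For HNGMT against NGMT, 3 were called on the set alone, without the filter and after quantile normalization of all arrays, 0 with the replicate block by the number in the title, of which the HNGMT and NGMT arrays of set 2 share none, 6 with the replicate block by the number in the sample name, and 3 to 5 with 1 array left out, against 5. For DMNT against NGMT, quantile normalization of all arrays, fitted without a term for the set, called 6 (4 higher, 2 lower), against 3. No such change is a result about the members by itself, since the counts over all genes, given further on, moved as well. The replicate block moved no other count of members by over 1.5 times. Arrays with the same number in set 2 deviated together at correlations of -0.26 to 0.30, and arrays with different numbers at -0.40 to 0.41, so the numbers were not taken as pairs. Counts over all genes moved more. With 1 array left out, HNGMT against HGMT had 1 to 3058 genes called, against 60 (14 without HNGMT replicate 1), NGMT against GMT 159 to 724 in set 1, against 574, 2 to 9 in set 2, against 4, DMNT against NGMT 636 to 1173, against 766, and the interactions 23 to 179, against 78, and 0 to 20, against 0. Over the other alternatives NGMT against GMT had 199 to 851 in set 1 and 1 to 199 in set 2, HNGMT against HGMT 1 to 778, HGMT against GMT 2022 to 5377, against 2916, and HNGMT against NGMT 1056 to 4803, against 3486. DMT against GMT had 1570 to 3937, against 2107, DMT against NGMT 1286 to 3452, against 2264, DMNT against DMT 0 to 615, against 8, DMNT against 0F 3532 to 7875, against 5060, and DMNT against NGMT 339 to 5604, against 766. The 2 interactions had 35 to 420, against 78, and 0 to 134, against 0 (1157 at an unadjusted p under 0.05). The cause of these shifts was not tested. Without DMT replicate 4, DMNT could not be compared with other groups. Lmod1, Tmod2 and Tmod4 lay below the array median in most groups, where a difference in signal may understate one in RNA.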
